A study of Rattus norvegicus with 46 samples.

Results

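In experiment A of a chlorpyrifos study, frontal lobe expression was compared between rats given 50 mg/kg and rats given 10 mg/kg, with no undosed animal in the comparison. The arrays were chosen by their titles: 3 arrays at 50 mg/kg (animals 2, 3 and 4) against 5 at 10 mg/kg (animals 1 to 5), which is 8 of the 46 arrays deposited. All animals were male F344 rats of 11 to 12 weeks that received chlorpyrifos once and were killed 96 hours later. About 30 mg of frontal lobe per animal was the source of total RNA for a single Affymetrix rat array, and the title of each array carries its own animal number. The route of dosing, the solvent and whether the tissue pieces were cut at matched positions could not be learned from the labels. The 3 vehicle arrays (0 mg/kg) and the 3 at 1 mg/kg of the same experiment that could be used are given as reference levels without a test. The 50 mg/kg animal 1 was left out because its column does not follow the row order of the table: its log2 correlation with the 39 arrays in order lay between -0.005825 and -0.001024.

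Chlorpyrifos is an organophosphate insecticide that the liver turns into an oxon. The oxon phosphorylates the active site of acetylcholinesterase, so acetylcholine persists at muscarinic and nicotinic synapses, and it also binds other serine hydrolases. The frontal lobe is mainly neocortex, whose layered excitatory neurons release glutamate; basal forebrain, striatum, olfactory areas and hypothalamus lie close to it. Oxytocin, vasopressin and melanin-concentrating hormone are made by hypothalamic neurons.

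The values are log2 normalised intensities, on which 1 unit is a doubling. Between pairs of the 8 arrays the correlation over probe sets ran from 0.9638 to 0.9778, and the median intensity ran from 260.2 to 278.6 before normalisation. The median was 273.3 on average at 50 mg/kg and 265.8 at 10 mg/kg (two-sided exact permutation test, p = 0.161). The test has 56 regroupings of 3 against 5 arrays, which limits how small its p can be. The ratio of 3 prime to 5 prime control signal, which is near 1 in intact RNA, averaged 1.475 against 1.432 for beta-actin (exact p = 0.679) and 1.081 against 1.073 for Gapdh (exact p = 0.768). Neuronal markers were present in every array, though they do not single out frontal lobe. The summed intensity of 16 neuron markers was 58060 to 65000 at 50 mg/kg and 58920 to 64010 at 10 mg/kg. The calmodulin-binding protein gene Nrgn lay at 11.91 or higher in all 8, and was lower at 50 mg/kg without overlap. Since each array read a bulk piece, fewer cells of a type and less RNA per cell cannot be told apart. Summed markers of neighbouring regions differed widely between pieces, and their values stand beside the genes they moved with.

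Of 11106 probe sets tested, 62 (0.558%) passed an adjusted p of 0.05 in limma. 19 (0.171%) were higher at 50 mg/kg and 43 (0.387%) were lower, and the 2 groups of arrays did not overlap for any of the 62. Among all probe sets tested, the groups did not overlap for 460 that were higher (4.14%) and 530 that were lower (4.77%), and 1516 had an unadjusted p under 0.05 where 5% of the tests comes to 555. With 1 probe set per gene, as in the gene lists below, 512 of 8013 genes were higher and 538 lower at an unadjusted p under 0.05. The 62 hold 49 probe sets with a single gene symbol, 18 higher and 31 lower. The count rested on single arrays: it was 181 without 50 mg/kg animal 2, 7 without animal 3 and 9 without animal 4, and it was 13, 12 and 31 without 10 mg/kg animals 2, 4 and 5. Animal 2 was the 50 mg/kg array nearest to the 10 mg/kg mean for 41 of the 62 probe sets, with a median distance of 0.624, against 0.834 for animal 3 and 0.764 for animal 4.

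**Figure D1:**
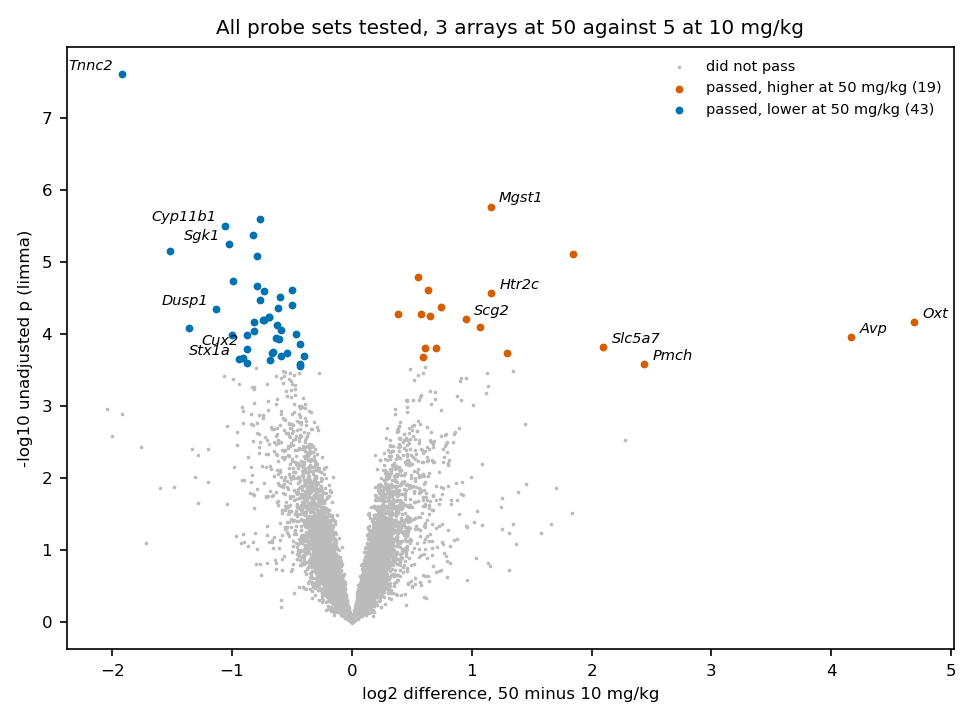
Log2 difference (50 minus 10 mg/kg, x axis) against -log10 of limma's unadjusted p (y axis) for the 11106 probe sets tested, with the 19 that passed and were higher in orange and the 43 that passed and were lower in blue. Oxt and Avp lie farthest to the right, at 4.69 and 4.17, and Tnnc2 has the smallest p.

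Hypothalamic peptide genes showed the largest differences of the comparison. Oxt, which encodes oxytocin, stood at 5.74, 5.25, 6.30, 5.78 and 6.30 in the 10 mg/kg animals 1 to 5 and at 7.93, 11.60 and 12.17 in the 50 mg/kg animals 2 to 4. It rose by 4.69 ± 0.75 (SE) at 50 mg/kg, a 25.8-fold difference with an adjusted p of 0.0241. The fold rests on a dim mean of 5.88 at 10 mg/kg. Because the filter on dim probe sets used the mean over all 8 arrays, the 50 mg/kg arrays helped Oxt into the test. The groups did not overlap, and animal 2 lay far below animals 3 and 4. Avp, which encodes vasopressin, stood at 7.09, 6.37, 7.37, 7.50 and 7.37 at 10 mg/kg and at 8.83, 12.37 and 12.72 at 50 mg/kg. It rose by 4.17 ± 0.71 (adjusted p = 0.0302), with the same order among the 3 animals. Pmch, the precursor gene of melanin-concentrating hormone, stood at 7.46, 7.39, 8.10, 7.52 and 7.57 at 10 mg/kg and at 8.47, 10.57 and 11.10 at 50 mg/kg, and it rose by 2.44 ± 0.46 (adjusted p = 0.0486). Leaving out 50 mg/kg animal 3 gave adjusted p values of 0.124 for Oxt, 0.154 for Avp and 0.182 for Pmch. Oxt kept its call in 3 of the 8 leave-one-out fits, and Avp and Pmch in 1 each.

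Oxt and Avp lie side by side on rat chromosome 3 with 0 protein-coding genes between them, on opposite strands. Their upstream sequences are shown because both rose in the same arrays. They cover the 250 bases before each gene's start (RefSeq, build GRCr8), for Oxt chr3:138235504-138235753 on the plus strand and for Avp chr3:138248523-138248772 on the minus strand, written 5′ to 3′. Capitals mark AGGTCA, a half-site of nuclear receptors, read on either strand; no capitals means no match.
Oxt: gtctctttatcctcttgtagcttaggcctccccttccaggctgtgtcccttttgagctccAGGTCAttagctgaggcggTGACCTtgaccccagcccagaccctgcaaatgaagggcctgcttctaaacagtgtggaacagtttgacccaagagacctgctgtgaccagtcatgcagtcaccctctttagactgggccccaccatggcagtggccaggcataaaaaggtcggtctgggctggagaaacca
Avp: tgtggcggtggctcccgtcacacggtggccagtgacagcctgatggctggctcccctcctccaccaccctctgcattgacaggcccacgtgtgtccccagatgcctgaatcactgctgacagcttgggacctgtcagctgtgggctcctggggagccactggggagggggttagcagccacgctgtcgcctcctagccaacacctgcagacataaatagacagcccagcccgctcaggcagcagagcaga
The Oxt window holds 2 such half-sites and the Avp window none. Of all 33469 promoters of 300 bases in the RefSeq table, 16.2% hold at least 1. Among the genes that passed, 3 of the 12 higher genes with a promoter in that table hold it (Oxt, Pcp4l1 and Slc5a7) and 1 of the 24 lower genes (Dact2). A match describes the letters and no more.

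The hypothalamic peptide list as a whole, Oxt, Avp and Pmch included, leaned higher. Of 9 members tested, 8 were higher at 50 mg/kg, and the 3 that passed were Oxt, Avp and Pmch, already described. The median difference, these 3 included, was 1.13 (0.61 with no filter on dim probe sets). Over all 8013 genes it was 0.01, and 18 (0.225%) passed higher and 29 (0.362%) lower. Cartpt, the gene of the appetite-regulating peptide CART, was 1.13 ± 0.22 higher without overlap but did not pass (adjusted p = 0.0541). Galanin (Gal) was 0.61 ± 0.23 higher with overlap (adjusted p = 0.270), and the stress peptide gene Crh differed by -0.08. Genes that mark hypothalamus and other subcortical regions were higher for 10 of 11, with a median of 0.66; none passed, and 5 did not overlap, where over all genes 4.33% did not overlap in that direction and 4.42% in the other. Resp18, a neuroendocrine secretory granule gene, stood between 10.54 and 10.88 at 10 mg/kg and at 11.08, 11.99 and 11.84 at 50 mg/kg (adjusted p = 0.0586). Zcchc12 was 1.14 ± 0.24 higher (adjusted p = 0.0644), Hap1, the huntingtin-associated protein gene, 0.66 ± 0.15 (adjusted p = 0.0861), and Slc17a6, the glutamate transporter of subcortical neurons, 1.09 ± 0.32 (adjusted p = 0.167). Nkx2-1, a transcription factor of ventral forebrain and hypothalamus, was 0.68 ± 0.27 higher and did not pass.

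Summed intensity over the 15 hypothalamic peptide genes on the array was 2414 to 3316 at 10 mg/kg and 4707, 13610 and 17530 in the 50 mg/kg animals 2, 3 and 4. Over the 12 subcortical regional genes it was 8967 to 11200 at 10 mg/kg and 11940, 20070 and 16440 at 50 mg/kg. Both sums separated the groups. The peptide sum is linear and includes Oxt, Avp and Pmch, which had passed, so its separation largely repeats those calls. At 1 mg/kg, animal 2 reached 10130 and 18470 on the same measures, and its Oxt level of 12.01 lay within the range of the 50 mg/kg arrays. The 0 mg/kg animal 2 had an Oxt level of 8.68, above the lowest 50 mg/kg array. The part of the region sampled in the peptide differences was not tested.

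**Figure D2:**
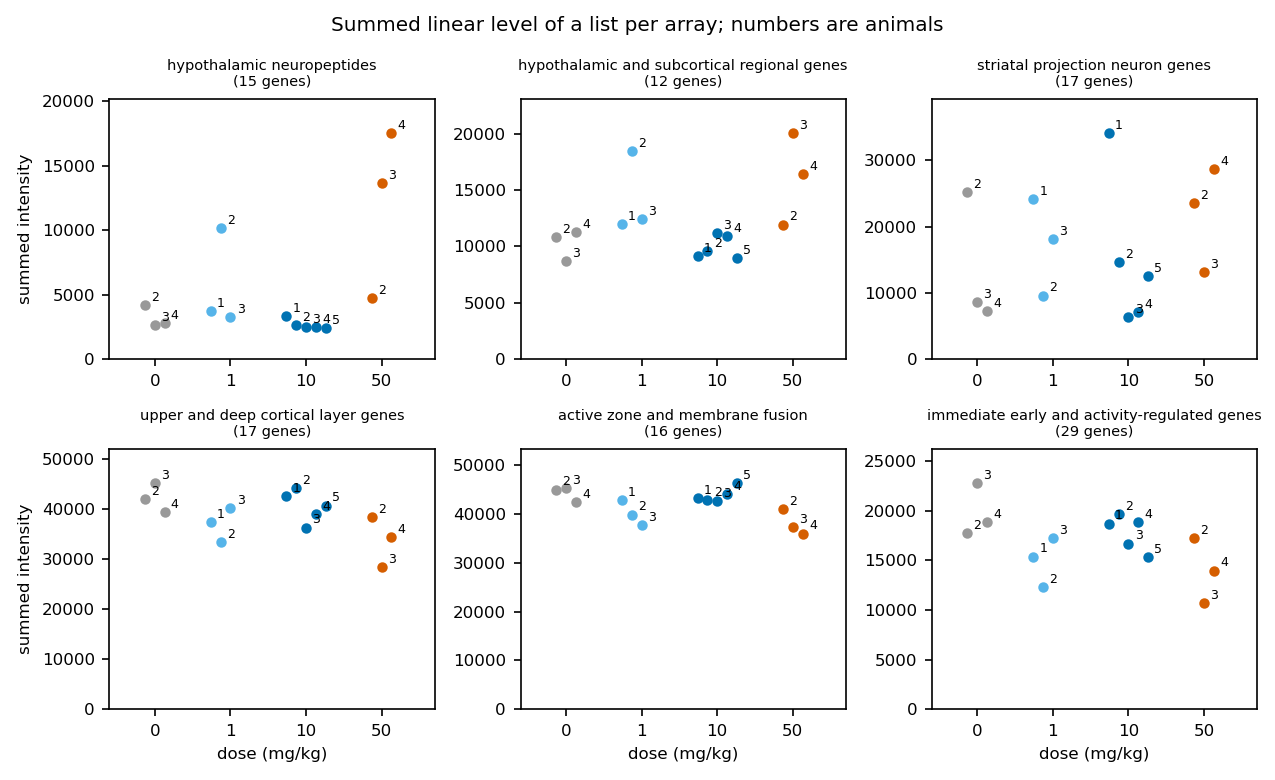
Summed linear intensity (y axis) of 6 gene lists in each array of experiment A by dose (mg/kg, x axis); each point is 1 array and its number is the animal. The hypothalamic peptide sum of the 3 arrays at 50 mg/kg stands above the 5 at 10 mg/kg, and that of 1 mg/kg animal 2 lies above 50 mg/kg animal 2, whereas the striatal sums of the 2 compared groups overlap.

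Slc5a7, the high-affinity choline transporter that loads cholinergic terminals, was the member of the cholinergic list that passed. It stood at 7.41, 5.90, 5.42, 6.22 and 6.34 at 10 mg/kg and at 8.31, 8.0 and 8.76 at 50 mg/kg. It rose by 2.10 ± 0.37 (4.28-fold, adjusted p = 0.0372), and its adjusted p was 0.112 without 50 mg/kg animal 3. The fold rests on a dim mean of 6.26 at 10 mg/kg, against 8.36 at 50 mg/kg. Because the filter on dim probe sets used the mean over all 8 arrays, the 50 mg/kg arrays helped Slc5a7 into the test. Pcp4l1, a small Purkinje cell protein 4-like gene, stood at 9.04, 8.29, 7.78, 7.97 and 8.10 at 10 mg/kg and at 9.67, 9.39 and 9.53 at 50 mg/kg, a rise of 1.30 ± 0.23 (adjusted p = 0.0400). For both genes the highest 10 mg/kg array was animal 1. That array also had the highest sum of the 17 striatal genes, 34150, where the other 10 mg/kg arrays lay between 6398 and 14710 and the 50 mg/kg arrays between 13200 and 28630. Striatal genes were higher for 15 of 16 tested with a median of 0.69, and none passed or separated the groups. The peptide precursor Tac1 was 1.71 ± 0.58 higher (adjusted p = 0.224), with 10 mg/kg animal 1 at 10.50 and the 3 arrays at 50 mg/kg between 9.62 and 10.19. The enkephalin gene Penk was 1.35 ± 0.59 higher (adjusted p = 0.350). Whether striatal content accounts for part of the Slc5a7 difference was not tested.

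The other cholinergic genes did not pass. Of 13 tested from 27 on the array, 5 were higher and 8 lower, with a median of -0.10. Bche, the butyrylcholinesterase gene, differed by -0.12 ± 0.16 with overlapping groups (adjusted p = 0.810). The choline kinase gene Chka was 0.45 ± 0.19 higher (adjusted p = 0.335), and the muscarinic receptor gene Chrm3 differed by -0.29 ± 0.12 (adjusted p = 0.338). Chat and Chrm1 lay under the low-intensity limit, and Ache is not analysed here. Of 17 other serine hydrolases that organophosphates can bind, 10 were higher, 7 lower and 0 passed in limma, while 3 higher and 1 lower had an unadjusted p under 0.05. Abhd12, a lysophospholipid hydrolase, was 0.46 ± 0.12 higher without overlap (adjusted p = 0.139).

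Mgst1, a microsomal glutathione transferase that detoxifies reactive lipids and electrophiles, was the higher gene with the smallest p. It stood at 7.39, 7.87, 7.52, 7.68 and 7.59 at 10 mg/kg and at 8.70, 8.71 and 8.88 at 50 mg/kg. It rose by 1.16 ± 0.12 (2.23-fold, adjusted p = 0.00872), and it passed in all 8 leave-one-out fits. Among 30 genes of the oxidative stress response, 19 were higher and 11 lower; Mgst1 alone passed, and the median was 0.08. The superoxide dismutase gene Sod1 was 0.38 ± 0.11 higher (adjusted p = 0.172). Over all 8013 genes, 4168 were higher, 0.225% passed higher and 4.33% were higher without overlap. Chaperone genes leaned higher: 25 of 30 were higher, 1 passed, 3 did not overlap, and the median was 0.18. The passing member was Pdia3, a disulfide isomerase of the endoplasmic reticulum, which stood at 10.73, 10.76, 10.74, 10.66 and 11.01 at 10 mg/kg and at 11.25, 11.40 and 11.42 at 50 mg/kg, a rise of 0.58 ± 0.09 (adjusted p = 0.0237). A second Pdia3 probe set differed by 0.11 ± 0.12. The small heat shock protein gene Hspb1 was 1.34 ± 0.26 higher without overlap (adjusted p = 0.0541), and Hspa5, the main chaperone of the endoplasmic reticulum, was 0.47 ± 0.14 higher with overlap.

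A serotonin receptor gene and a granin gene rose as well. Htr2c, the serotonin 2C receptor, stood at 9.32, 9.44, 10.06, 9.26 and 9.54 at 10 mg/kg and at 10.85, 10.73 and 10.48 at 50 mg/kg, a rise of 1.16 ± 0.17 (adjusted p = 0.0191, and 0.0949 without 50 mg/kg animal 3). This receptor is abundant in choroid plexus, and the highest 10 mg/kg array, animal 3, also had a choroid plexus sum of 20650 over 13 markers, against 3019 to 4067 in the other 10 mg/kg arrays and 3814 to 4323 at 50 mg/kg. The part of choroid plexus tissue in the Htr2c difference was not tested. A second Htr2c probe set was 0.65 ± 0.14 higher and did not pass (adjusted p = 0.0705). Scg2, the precursor of secretoneurin in dense-core vesicles, stood at 10.66, 10.22, 10.88, 10.58 and 10.26 at 10 mg/kg and at 11.28, 11.67 and 11.47 at 50 mg/kg. It rose by 0.95 ± 0.15 (adjusted p = 0.0237), whereas Pcsk2, which cleaves prohormones, differed by -0.64 ± 0.14 without overlap (adjusted p = 0.0861). Of the 10 granin and prohormone genes tested, 4 were higher and 6 lower, with Scg2 alone passing.

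The remaining higher genes were 6330403K07Rikl, at 1.84 ± 0.23 (adjusted p = 0.0102), the receptor tyrosine phosphatase Ptpro at 1.07 ± 0.17 (0.0261), and Bex4 at 0.74 ± 0.11 (0.0230). Serping1, the inhibitor of complement C1, rose by 0.70 ± 0.12 but passed in 0 of the 8 fits that left out a single array (highest adjusted p 0.160). Its mean at 0 mg/kg, 7.88, lay inside the 50 mg/kg range. Smaller rises were those of the matrix gene Fbln1 (0.65), the haem-binding membrane protein gene Pgrmc1 (0.64), the cold shock domain gene Csdc2 (0.61), the splicing factor gene Hnrnpa1 (0.55) and the membrane protein gene Itm2c (0.38). Hnrnpa1 has many processed copies in the genome, and its other 2 probe sets differed by 0.35 and 0.00 without passing, so its rise holds for 1 of 3 probe sets. In the list of microglial markers 16 of 20 were higher with a median of 0.24 and 0 passed in limma, with 5 higher and 0 lower at an unadjusted p under 0.05.

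Tnnc2, the fast skeletal muscle troponin C gene, had the smallest p of the comparison. It stood at 8.75, 8.70, 8.48, 8.73 and 8.82 at 10 mg/kg and at 6.95, 6.90 and 6.48 at 50 mg/kg. It fell by 1.92 ± 0.14 on the log2 scale, to 0.264 of the 10 mg/kg level (adjusted p = 0.000277), and it passed in all 8 leave-one-out fits. Its mean at 50 mg/kg, 6.77, was dim, and the 10 mg/kg arrays raised the mean over all 8 arrays that the filter used. The other 5 fast muscle genes tested did not pass: the calcium pump gene Atp2a1 differed by -0.33, and the creatine kinase gene Ckm by 0.31. Cyp11b1, the 11-beta-hydroxylase that makes corticosterone in the adrenal cortex, stood at 8.17, 8.47, 8.31, 8.44 and 8.25 at 10 mg/kg and at 7.44, 7.10 and 7.27 at 50 mg/kg. It fell by 1.06 ± 0.12 (adjusted p = 0.00872) and also passed in all 8. Cyp11b1 has close paralogues in the rat, and which of them the probe set reads is uncertain.

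Genes that respond to glucocorticoids and to neuronal activity were mostly lower at 50 mg/kg. Sgk1, a kinase gene induced by corticosteroids, stood at 11.15, 11.05, 11.61, 11.19 and 11.50 at 10 mg/kg and at 10.34, 10.20 and 10.27 at 50 mg/kg. It fell by 1.03 ± 0.13 (adjusted p = 0.0102); its adjusted p was 0.0618 without 50 mg/kg animal 3 and 0.0503 without animal 4. Dusp1, a phosphatase gene that is both an immediate early gene and a glucocorticoid target, stood at 10.30, 10.19, 10.37, 10.47 and 10.23 at 10 mg/kg and at 9.68, 8.73 and 9.14 at 50 mg/kg. It fell by 1.13 ± 0.17 (adjusted p = 0.0230, and 0.0910 without 50 mg/kg animal 4), and its second probe set differed by -0.99 ± 0.20 (adjusted p = 0.0567). Of 21 glucocorticoid-responsive genes, 17 were lower, 2 passed (Sgk1 and Dusp1), 4 were lower without overlap, and the median was -0.24. Over all genes tested, 0.362% passed lower and 4.42% were lower without overlap. Hypoxia- and stress-responsive Ddit4 differed by -0.70 ± 0.20 without overlap (adjusted p = 0.149). Of 16 circadian clock genes 13 were lower with a median of -0.23; 0 passed in limma, and 6 lower and 0 higher had an unadjusted p under 0.05. The repressor Nr1d1 differed by -0.51 ± 0.13 and the output factor Hlf by -0.43 ± 0.12, both without overlap (adjusted p = 0.120 and 0.141). Per1, a clock gene that is also an immediate early gene and a glucocorticoid target, differed by -0.79 ± 0.20 (adjusted p = 0.123).

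Of 23 immediate early and activity-regulated genes, 19 were lower and 4 higher, Dusp1 alone passed, and the median was -0.28. Arc, a synaptic plasticity gene, stood at 10.76, 10.86, 10.52, 10.41 and 9.94 at 10 mg/kg and at 10.25, 8.72 and 9.58 at 50 mg/kg. The groups overlapped and Arc did not pass (-0.98 ± 0.30, adjusted p = 0.172). The nuclear receptor gene Nr4a1 showed the same order, with 50 mg/kg animal 2 at 9.91 inside the 10 mg/kg range (adjusted p = 0.172). The 5 probe sets of Homer1, a postsynaptic scaffold gene, differed by -1.76 to -0.43, and none passed. Junb differed by -0.34 ± 0.21 (adjusted p = 0.518). Time of day at death and handling are not given in the sources used here, and their part in these lists was not tested.

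The Dusp1 and Scg2 promoters are shown because each holds a full cyclic AMP response element, the letters TGACGTCA, while the genes moved in opposite directions. The sequences are the 250 bases before the gene's start (RefSeq, GRCr8), chr10:17184603-17184852 on the plus strand for Dusp1 and chr9:88256867-88257116 on the minus strand for Scg2, with the element in capitals; it reads the same on both strands and overlaps no other motif searched.
Dusp1: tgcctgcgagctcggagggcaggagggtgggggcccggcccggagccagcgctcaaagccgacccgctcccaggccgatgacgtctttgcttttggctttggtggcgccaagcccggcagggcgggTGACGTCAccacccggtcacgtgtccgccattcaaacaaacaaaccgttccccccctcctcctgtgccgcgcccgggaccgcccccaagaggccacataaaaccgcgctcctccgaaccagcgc
Scg2: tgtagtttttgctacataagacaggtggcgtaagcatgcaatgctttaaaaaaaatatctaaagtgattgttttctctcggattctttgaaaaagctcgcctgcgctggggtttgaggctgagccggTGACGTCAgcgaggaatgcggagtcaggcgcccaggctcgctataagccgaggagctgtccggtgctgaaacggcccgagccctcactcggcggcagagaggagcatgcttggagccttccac
This element is held by 1.83% of all promoters in the table. Among genes that passed, it was found for 1 of 12 higher genes with a listed promoter (Scg2) and for 3 of 24 lower genes (Dusp1, Gpcpd1 and Pak1). The TATA box TATAAA, also searched on both strands, was found for 2 of the 12 higher and 1 of the 24 lower genes, against 14.2% of all promoters.

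Release machinery of the presynaptic active zone was lower throughout. Over all 8013 genes, 3845 were lower, 0.362% passed lower and 4.42% were lower without overlap. In this list all 15 genes tested were lower, by -0.94 to -0.03. Of these, 1 passed, 4 did not overlap and 8 had an unadjusted p under 0.05, and the median was -0.31 (-0.18 without 50 mg/kg animal 3). The passing gene was Stx1a, the plasma membrane syntaxin of vesicle fusion, which stood at 10.78, 11.26, 10.79, 11.13 and 10.85 at 10 mg/kg and at 10.37, 10.12 and 9.57 at 50 mg/kg. It fell by 0.94 ± 0.17 (adjusted p = 0.0437), its second probe set differed by -0.81 ± 0.17 (adjusted p = 0.0687), and it kept its call in 1 of 8 leave-one-out fits. The scaffold genes Rims1, Bsn and Pclo differed by -0.56 ± 0.11 (adjusted p = 0.0541), -0.51 ± 0.11 (0.0786) and -0.47 ± 0.16 (0.231). The summed intensity of the 16 genes on the array separated the groups, with 36000 to 41000 at 50 mg/kg and 42760 to 46460 at 10 mg/kg. The list was drawn up with earlier results of these data known, in which Stx1a, Rims1, Bsn and Pclo stood out at 50 mg/kg. Neither the count nor the sum is independent of that choice. Synaptic vesicle proteins were divided, 9 higher and 12 lower with 0 passing in limma (2 higher and 4 lower at an unadjusted p under 0.05), and Syn1, a vesicle-tethering synapsin, differed by -0.38 ± 0.09 (adjusted p = 0.114).

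Ion channels and cortical layer genes were mostly lower too. Of 30 potassium channel genes 22 were lower and of 23 sodium and calcium channel genes 16 were lower, with medians of -0.18 and -0.16, and 0 members of either list passed in limma. At an unadjusted p under 0.05 these lists held 8 and 5 lower genes and 0 higher genes, where all 8013 genes held 538 lower and 512 higher. Scn8a, the sodium channel of axon initial segments, stood between 7.16 and 7.60 at 10 mg/kg and between 6.48 and 6.70 at 50 mg/kg (-0.80 ± 0.15, adjusted p = 0.0517). Kcnk4, a mechanosensitive potassium channel gene that the potassium channel list does not hold, passed: it stood at 8.42, 8.65, 8.76, 8.72 and 8.49 at 10 mg/kg and at 7.87, 7.66 and 7.33 at 50 mg/kg, a fall of 0.99 ± 0.14 (adjusted p = 0.0186, and 0.0741 without 50 mg/kg animal 3). Cux2, a transcription factor of upper cortical layers, stood at 8.34, 8.76, 8.08, 8.53 and 8.19 at 10 mg/kg and at 7.63, 7.48 and 7.41 at 50 mg/kg, and fell by 0.87 ± 0.16 (adjusted p = 0.0382, and 0.155 without animal 3). Of 17 cortical layer genes 13 were lower with a median of -0.34, Cux2 alone passed, and 4 did not overlap. The shares over all genes were 0.362% passing lower and 4.42% lower without overlap. Tbr1, a deep-layer transcription factor, differed by -1.06 ± 0.21 (adjusted p = 0.0555) and Nrgn by -0.53 ± 0.14 (adjusted p = 0.128), both without overlap. The cortical sum was 38460, 28440 and 34400 in the 50 mg/kg animals 2, 3 and 4 and 36330 to 44310 at 10 mg/kg, so it overlapped only through animal 2. Animals 3 and 4, with the lowest cortical sums of the 8 arrays, are those with the highest hypothalamic sums; the part of the region sampled in the lower genes was not tested.

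Other genes that fell had varied roles. Neuronal cytoskeleton and transport were represented by the neurofilament gene Ina (-0.50 ± 0.07, adjusted p = 0.0186) and the kinesin gene Kif5a (-0.60 ± 0.09, adjusted p = 0.0202); a second probe set of each was lower without passing. The guidance receptor gene Epha4 stood between 10.19 and 10.56 at 10 mg/kg and at 9.76, 9.01 and 9.74 at 50 mg/kg (-0.88 ± 0.16). Signalling genes were the phosphoinositide kinase genes Pip5k1c (-0.50) and Pip4k2c (-0.63), the calcium-dependent kinase kinase gene Camkk1 (-0.74), the kinase gene Pak1 (-0.44), the scaffold gene Cnksr2 (-0.88, and -0.35 with overlap in a second, brighter probe set) and the Wnt modulator gene Dact2 (-1.0). The calcium-binding protein genes Necab1 (-0.70) and Cpne9 (-0.82) fell, as did Gls2, a glutaminase gene (-0.62), and Gpcpd1, which cleaves glycerophosphocholine (-0.91). Catsperz, known as a sperm calcium channel subunit, fell by 1.36 ± 0.22 from a mean of 7.59 to 6.24 (adjusted p = 0.0267). Because the filter on dim probe sets used the mean over all 8 arrays, the 10 mg/kg arrays helped Catsperz into the test. Itgb1, an integrin subunit gene, fell by 0.59 in 1 probe set and was 0.46 higher in the other, so its direction is not settled. The 9 further genes with a single symbol were Kiaa1671, Sgtb, Asap1, Bbln, Car10, Fxyd7, Nudt4, Plekhm2 and Mllt6, with differences from -0.76 to -0.43; a second Asap1 probe set differed by -0.30 and did not pass (adjusted p = 0.342).

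Transmitter systems other than the cholinergic one held single genes that stood out. Monoamine genes were higher for 16 of 19 tested, with Htr2c alone passing and a median of 0.17. Adra1d, an alpha-1 adrenergic receptor gene, differed by -1.49 ± 0.50 (adjusted p = 0.222): 50 mg/kg animal 3 stood at 5.26, against 7.99 and 7.54 in animals 2 and 4 and 8.05 to 8.91 at 10 mg/kg. Of 18 genes of the GABA system 11 were higher and 0 passed in limma, with 4 higher and 1 lower at an unadjusted p under 0.05. Gad1, which makes GABA, stood between 11.54 and 12.01 at 10 mg/kg and between 12.20 and 12.30 at 50 mg/kg (0.46 ± 0.10, adjusted p = 0.0915). Of 20 glutamate receptor genes 12 were lower and 0 passed in limma, with 2 higher and 6 lower at an unadjusted p under 0.05. The presynaptic receptor gene Grm8 differed by -1.04 ± 0.25 without overlap (adjusted p = 0.118), but a second Grm8 probe set had a mean of 8.16 in both groups.

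Interneuron genes did not move as a block. Of 17 tested, 11 were higher and 6 lower, and the calcium-binding protein gene Necab1 was the one that passed. It stood at 8.57, 8.59, 8.84, 8.68 and 8.63 at 10 mg/kg and at 8.15, 7.86 and 7.88 at 50 mg/kg (-0.70 ± 0.11, adjusted p = 0.0237, and 0.116 without 50 mg/kg animal 3). Somatostatin (Sst) was 0.27 ± 0.10 higher without overlap (adjusted p = 0.244), whereas Vip differed by -0.69 ± 0.24 and cholecystokinin (Cck) by -0.55 ± 0.25 with overlap. Cck stood at 12.52 in 50 mg/kg animal 2, above all 10 mg/kg arrays, and at 11.02 and 11.61 in animals 3 and 4, below them. Calb2, the calretinin gene, was 1.39 ± 0.49 higher, with 10 mg/kg arrays spread from 8.09 to 10.61 (adjusted p = 0.232).

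Genes of intracellular pathways gave few calls. Of 33 genes of G protein and cyclic nucleotide signalling 20 were higher, 13 lower and 0 passed in limma, with 3 higher and 4 lower at an unadjusted p under 0.05. The calmodulin-dependent phosphodiesterase gene Pde1a differed by -0.74 ± 0.18 without overlap (adjusted p = 0.108). Of 21 xenobiotic metabolism genes 13 were higher, and Mgst1 was again the member that passed; the efflux pump gene Abcb1a differed by -0.36 ± 0.10 (adjusted p = 0.158). Cholesterol synthesis genes were divided, 10 higher and 9 lower, with Hsd17b7 at -0.71 ± 0.19 (adjusted p = 0.132). Inflammation genes were higher for 12 of 15 with a median of 0.07, among them A2m, a protease inhibitor gene, at 0.63 ± 0.27 (adjusted p = 0.338). In the cytoskeleton list 21 of 34 were higher, yet the 2 that passed, Ina and Kif5a, fell; Marcks, which links actin to the membrane, was 0.59 ± 0.12 higher without overlap (adjusted p = 0.0541). Apoptosis and cell cycle genes were 13 higher and 11 lower, with Ccnd1, the cyclin D1 gene, at 0.39 ± 0.10 (adjusted p = 0.123). Of the 5 blood cell genes 4 were lower and 1 higher, with a median of -0.325 that became 0.056 with no filter on dim probe sets. The globin gene Hbb differed by -0.90 ± 0.43 (adjusted p = 0.388). The higher gene, S100a9, was 1.84 ± 0.74 higher with overlap, from a dim mean of 6.22 at 10 mg/kg (adjusted p = 0.307).

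Genes chosen because they stood out at 50 mg/kg in earlier results of the same arrays did not all pass here. The contactin gene Cntn4 differed by -0.55 ± 0.12 (adjusted p = 0.0706), the Ras exchange factor gene Rasgef1b by -0.83 ± 0.17 (0.0652), the kinase gene Mink1 by -0.42 ± 0.09 (0.0915) and the actin regulator gene Cyfip2 by -0.36 ± 0.08 (0.0969). The groups did not overlap for these 4 genes, where 4.42% of all genes tested were lower without overlap. The choice of these genes used the same 50 mg/kg arrays, so nothing is read from that count. The same choice held Oxt, Avp, Pmch, Tnnc2, Dusp1, Arc, Homer1, Junb, Nr4a1, Stx1a, Pclo, Rims1, Bsn and Syn1. Also in it were Scn8a, Cck, Pcsk2, Scg2, Gal, Th, Calb2 and Necab1. Their differences are likewise not independent of that choice. A second Rasgef1b probe set differed by -0.48 ± 0.22 with overlap (adjusted p = 0.381).

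**Figure D3:**
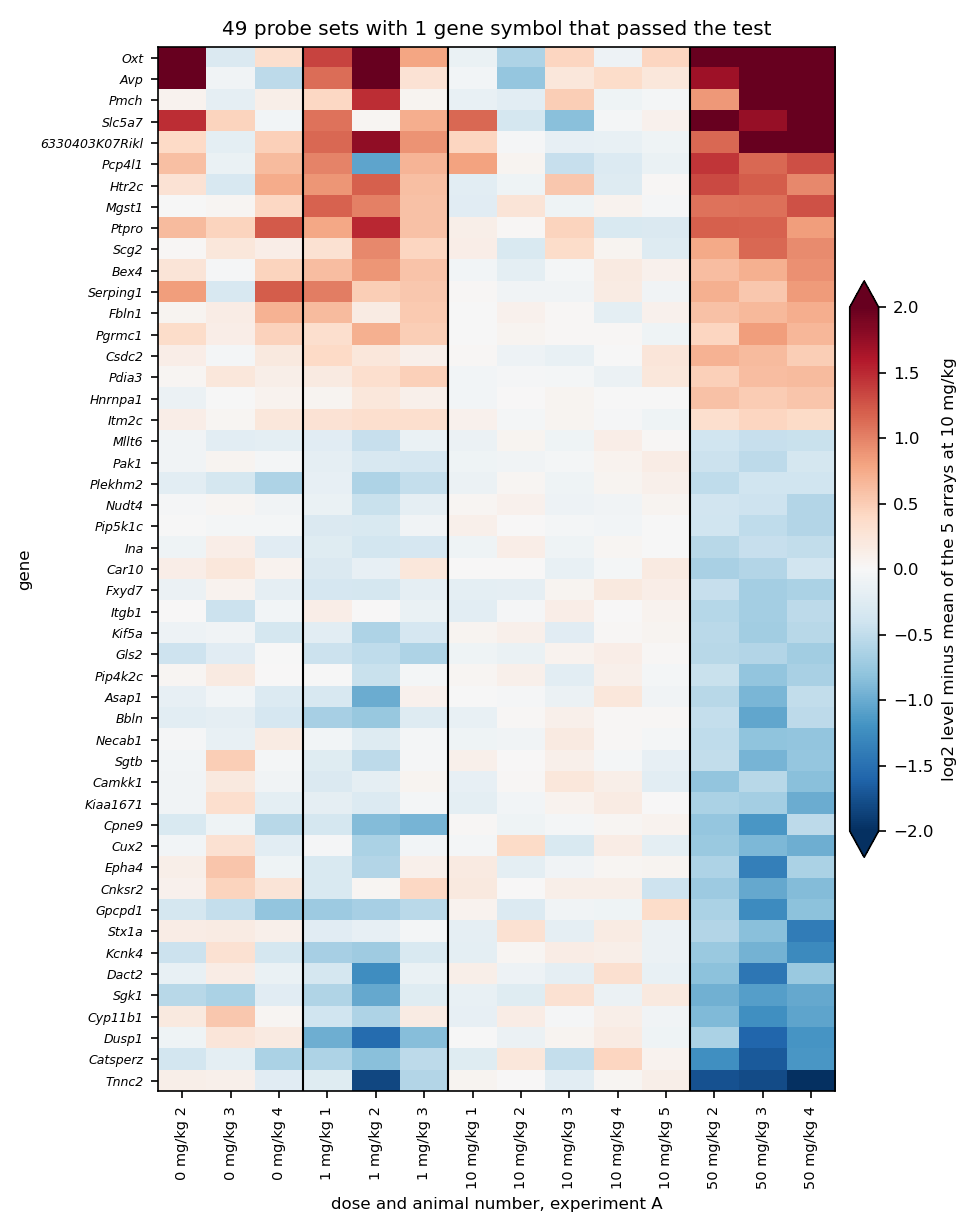
Level of the 49 probe sets with a single symbol that passed, as the log2 level minus the mean of the 5 arrays at 10 mg/kg (colour), in the 14 usable arrays of experiment A (columns). The 3 columns at 50 mg/kg differ from the 10 mg/kg columns for every gene; 1 mg/kg animal 2 resembles them for genes such as Oxt, Avp, Dusp1 and Tnnc2.

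The lists of broad cell type markers and of olfactory bulb markers held no gene that passed in limma. Neuron markers were divided, 9 higher and 7 lower, with a median of 0.03. Astrocyte markers were higher for 14 of 22 with a median of 0.11, and their sum separated the groups (82920 to 88330 against 77720 to 82200). Meningeal and fibroblast markers were higher for 16 of 22 with a median of 0.38 (0.16 without 50 mg/kg animal 3); the prostaglandin D synthase gene Ptgds was 0.47 ± 0.12 higher without overlap (adjusted p = 0.120), and the list's sums overlapped at 19350 to 27430 against 16850 to 20190. Olfactory bulb markers were higher for 5 of 5, among them Th, the enzyme that makes L-DOPA, at 0.91 ± 0.18 (adjusted p = 0.0564), which stood between 8.18 and 8.24 at 50 mg/kg and between 6.85 and 7.79 at 10 mg/kg. Cdhr1 reached 10.20 in 50 mg/kg animal 2 and lay between 6.81 and 7.68 in the other 7 arrays. Myelin markers were lower for 10 of 15 and endothelial markers for 13 of 18, with medians of -0.08 and -0.06. No member of these 6 lists passed in limma; the lists held between 1 and 7 genes at an unadjusted p under 0.05 in their more frequent direction. Choroid plexus markers were lower for 6 of 8, with a median of -0.19 that became 0.14 without 10 mg/kg animal 3. Housekeeping groups stayed near the overall median: 0.07 for 39 cytosolic ribosomal proteins, 0.02 for 59 respiratory chain genes and 0.05 for 34 proteasome subunits. With median scaling alone the ribosomal median became -0.020, the respiratory chain median -0.055 and the neuron median -0.064, so the direction of these 3 is not settled. Besides the astrocyte, hypothalamic peptide, subcortical regional and active zone sums, those of the glucocorticoid-responsive, circadian clock and chaperone lists separated the groups. The sums of all other lists overlapped.

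**Figure D4:**
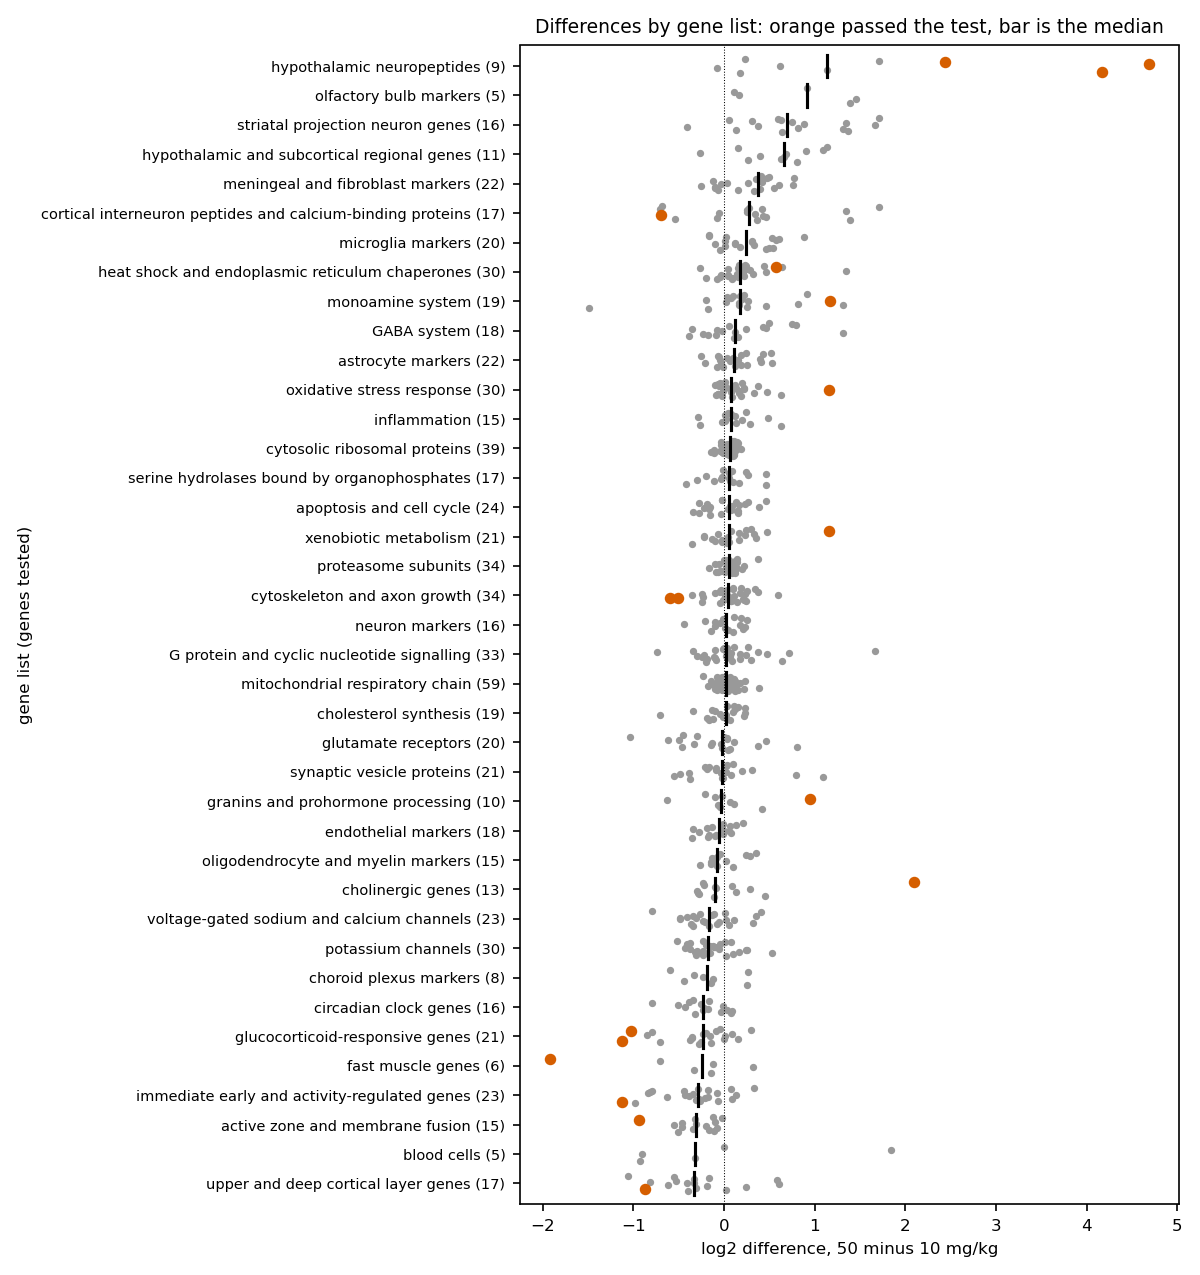
Log2 difference (50 minus 10 mg/kg, x axis) of each gene tested in the 39 lists (y axis, with the number of genes); orange points passed, the bar is the list's median. Hypothalamic peptides have the highest median, 1.13, and cortical layer genes the lowest, -0.34.

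Neither reference group was part of the test. For 53 of the 62 probe sets the mean at 0 mg/kg was nearer to the 10 mg/kg mean than to the 50 mg/kg mean, and for 35 it lay inside the 10 mg/kg range. For 48, no 0 mg/kg array reached the nearest 50 mg/kg array. The mean at 1 mg/kg, however, was nearer to the 50 mg/kg mean for 36 of the 62. Dusp1 stood at 10.22, 10.56 and 10.49 at 0 mg/kg and at 9.33, 8.78 and 9.46 at 1 mg/kg, so the 1 mg/kg arrays lay within the range of the 50 mg/kg arrays and below all arrays at 10 mg/kg. Mgst1 stood at 7.60, 7.65 and 8.03 at 0 mg/kg and at 8.79, 8.62 and 8.19 at 1 mg/kg, so the higher 2 of its 1 mg/kg arrays stood close to the 50 mg/kg arrays. Tnnc2 stood at 8.81, 8.79 and 8.47 at 0 mg/kg, level with 10 mg/kg, and at 8.45, 6.87 and 8.11 at 1 mg/kg, where animal 2 alone reached the 50 mg/kg range. Stx1a stood between 11.07 and 11.13 at 0 mg/kg and between 10.73 and 10.93 at 1 mg/kg, all above its 50 mg/kg values. For 9 of the 62 the mean at 0 mg/kg was instead nearer to the 50 mg/kg mean, among them Serping1, Ptpro, Pgrmc1, Gpcpd1 and Plekhm2. Serping1 stood at 8.14, 6.98 and 8.51 at 0 mg/kg, between 7.24 and 7.47 at 10 mg/kg and between 7.85 and 8.15 at 50 mg/kg.

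**Figure D5:**
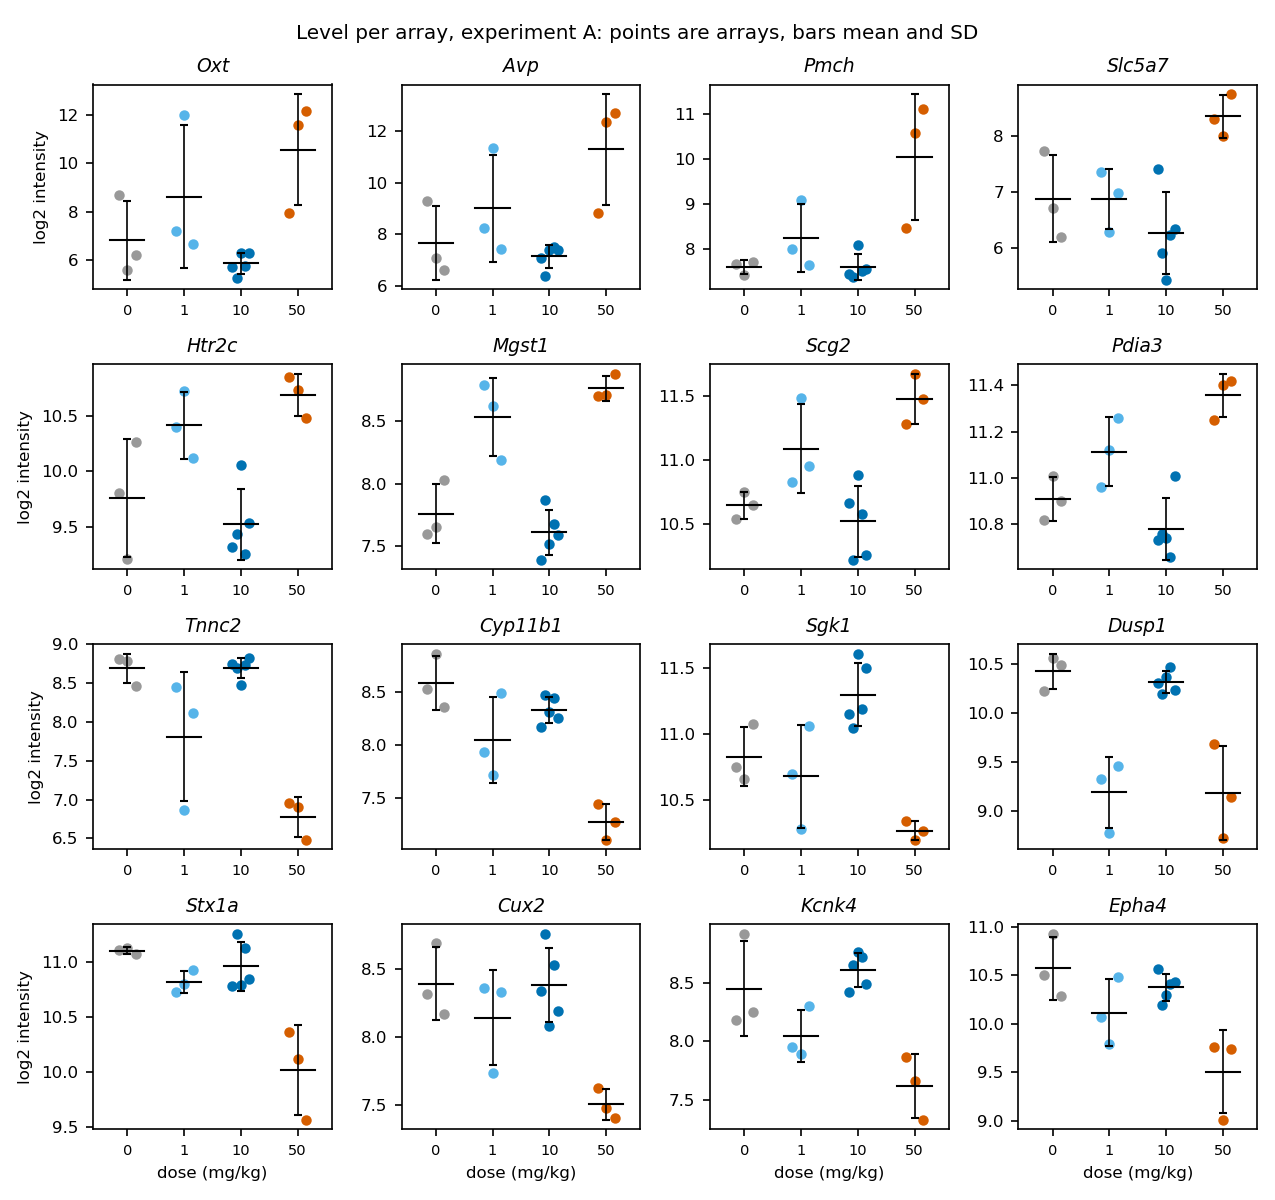
Log2 intensity (y axis) of 16 genes that passed, in each array of experiment A by dose (mg/kg, x axis); points are arrays, and bars give the mean and SD. At 50 mg/kg Slc5a7 and Stx1a lie apart from all other doses, while 1 mg/kg arrays of Dusp1, Htr2c and Mgst1 reach the 50 mg/kg values. Cux2 and Kcnk4 do not overlap other doses but come close: 1 mg/kg animal 2 stands at 7.74 and 7.89, and 50 mg/kg animal 2 at 7.63 and 7.87.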

How the data were processed

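Per the labels, total RNA (15 ug, Qiagen column extraction) was labelled with biotin by an Enzo procedure and read on Affymetrix rat arrays. The deposited values are linear intensity per probe set, without detection calls; the program that summarized them is not named in the sources used here. Precision is limited by the number of arrays, as no count stands behind a value. The 39 arrays whose columns share one row order were, without 57 controls, brought to a common median, given a floor at the 5th percentile (10.7), log2 transformed and quantile normalized; 7 arrays were not used. Probe sets with a mean over the 8 compared arrays under the 30th percentile were dropped, leaving 11106 of 15866. Limma 3.58.1 (R 4.3.3) fitted the 2 groups (lmFit, eBayes with trend, two-sided, Benjamini-Hochberg over 11106, threshold 0.05), and was tested on simulated data. Symbols came from the platform table, updated by gene identifier (12748 of 12783 single-symbol probe sets matched). Lists used the probe set with the highest mean per gene and have no test of their own; some genes stand in several. The text names up to 12 genes per direction with the largest differences that passed, up to 4 with the smallest p per list, genes named earlier at 50 mg/kg and 4 cholinergic genes; further genes that passed, and list members and second probe sets chosen after their values were seen, are added as description. The members and lists were chosen with earlier results of these data known. Where the labels show no more than separate animal numbers, p-values measure the spread between these arrays. Same-numbered animals of the 2 doses did not deviate together (correlations 0.024, 0.066 and -0.151). Alternatives covered normalization, floor, filter, variance model, arrays in the fit, a block and single arrays left out. Figures used matplotlib 3.10.9.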

Additional observations from a re-analysis of the deposited data

Results flagged for a closer look

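Within the 5 arrays at 10 mg/kg, 189 genes were checked for a single array far from the other 4, where 1 in 20 would be met by chance, and 15 were found. At that share a large part of the 15 would be met by chance, and the genes come from the same arrays, so they are listed as description. Animal 3 stood apart for Pmch (8.10, others 7.39 to 7.57), Folr1 (9.23, others 7.88 to 8.14) and Car2 (11.31) on the high side, and for Kif5a (11.57, others 11.82 to 11.91) and Hlf (10.37) on the low side. This is the array with the choroid plexus sum of 20650, and Folr1 is a marker of that tissue. Animal 1 stood high for Tac1 (10.50, others 7.25 to 8.16), 6330403K07Rikl (9.73) and Hsp90b1 (11.14); it is the array with the highest striatal sum, 34150. Animal 2 stood high for Kcnh3 (10.36) and RT1-Da (8.17) and low for Qdpr (11.76), Spp1 (6.32) and Pdgfra (8.92). Animal 5 stood high for the interneuron gene Pvalb (11.13, others 9.88 to 10.08) and low for Cacng3 (10.01). The part of tissue composition in these single arrays was not tested.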

How the results depend on the processing

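The count of 62 probe sets (19 higher, 43 lower) became 7 (2 and 5) with no filter on dim probe sets, 26 (8 and 18) without the trend in the variance model, and 34 (11 and 23) with all 39 arrays in the fit. Leaving out 1 array at a time gave 7 to 181 in all, 1 to 58 higher and 6 to 123 lower. With the animal number as a replicate block it was 18 (12 and 6), of which 11 were among the 62; the numbers do not pair the animals. With 50 mg/kg animal 1 put back it was 1 (0 and 1), as that column holds other probe sets in each line; it gives no value for a gene or a list, a limit set after its values were seen. The cause of the other changes was not tested. Without scaling it was 62 (20 and 42), with median scaling 74 (21 and 53). Of the results for single genes, 3052 kept their direction and side of the threshold, 212 lost the call, 50 gained it and 1 reversed: Bche was 0.044 without 50 mg/kg animal 3, and -0.197 without animal 2. Tnnc2 passed under all 19 alternatives that gave it a value, Mgst1 under 19 of 20, Cyp11b1 under 18 of 19, Oxt under 10 of 19 and Stx1a under 9 of 20. List medians moved beyond the spread in 42 of 780 cases and changed sign in 22, over 11 lists with medians of -0.325 to 0.066. With 3 arrays at 50 mg/kg, differences that miss the threshold may still be present.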
